A study of Mus musculus with 2 samples.

Results

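The miR-181 family was compared between the developing mammary gland and the flank beside it in ICR mouse embryos at E13.5. Its members were taken by name, as the 4 guide strands listed on the arrays as mmu-miR-181a, mmu-miR-181b, mmu-miR-181c and mmu-miR-181d, out of 696 mouse miRNAs. The family was selected on its ratios between the regions on these same arrays, which were known from earlier results, so its values are a description and carry no test.

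The study asked which miRNAs are present in the early mammary gland, at the stage when the epithelial bud has sunk into the mesenchyme. "Gland" below is the 3rd mammary gland, and "flank" is what the study calls the inter mammary gland region, dissected from between the 3rd and 4th glands. Both came from untreated embryos of time-mated pregnant mice. For each, 100 ng of RNA carried the dye Cy3 onto 1 Agilent 1-colour miRNA array, and the arrays shared a slide and a scan. The tissue was dissected and not sorted, so each RNA sample came from a mixture of cell types, and the number and sex of the embryos are not given in the sources used here. With 1 array per region no difference has a replicate check, and no p-value is given. An SD or SE over spots below is technical, and precision is limited by having so few arrays.

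MiRNAs are short RNAs that lower the output of messenger RNAs by pairing with them, mainly through a stretch near the 5′ end of the miRNA called the seed. Members of a family share the seed and so have largely overlapping predicted targets. The miR-181 family is best known in the blood system, where miR-181a helps to set the sensitivity of developing T cells to antigen, and it also rises as myoblasts mature into muscle fibres. In breast cancer cells miR-181a is known as a miRNA raised by TGF-β.

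The mature sequences are shown because the members form pairs by sequence, against which their ratios are set below. They are the RefSeq sequences of assembly GRCm38.p6, matched by name for all 4 members, written 5′ to 3′ with the seed (bases 2 to 8) in capitals.
miR-181a: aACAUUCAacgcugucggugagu
miR-181c: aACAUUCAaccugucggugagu
miR-181b: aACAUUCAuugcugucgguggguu
miR-181d: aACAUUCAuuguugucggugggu
All 4 carried the same seed, and 0 other mature miRNAs among the 1679 names in the RefSeq table carried it. Outside the seed the members formed 2 pairs. miR-181a and miR-181c differed by 1 base, missing from miR-181c, and shared their last 12 bases. miR-181b and miR-181d differed by 1 substitution, C12U, with positions counted from 1 at the 5′ end of miR-181b, and by a final base that miR-181d lacks. Across the pairs the distance was larger: miR-181a and miR-181b differed at A9U, C10U and A21G, counted on miR-181a, and in length by 1 base.

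The genes of the members are arranged the other way round, with 1 member of each pair in every cluster. Mir181a-1 and Mir181b-1 lie on chromosome 1, with their guide strands at chr1:137966468-137966490 and chr1:137966650-137966673 on the plus strand. Mir181a-2 and Mir181b-2 encode the same 2 mature sequences on chromosome 2, at chr2:38852741-38852763 and chr2:38853845-38853868, also on the plus strand. Mir181c and Mir181d lie on the minus strand of chromosome 8, at chr8:84178924-84178945 and chr8:84178759-84178781. Only 159 bases separate the guide strands of the first cluster and 142 those of the third, against 1081 in the second. All of these positions are in GRCm38.p6, and each is a mature miRNA within a non-coding miRNA gene. As the clusters on chromosomes 1 and 2 encode the same miR-181a and miR-181b, an array signal for either cannot be divided between these clusters.

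Each array held 13920 spots for 1937 miRNA probes, and 38.1% of them were well above background on each array. The signal of a spot, as deposited, is its intensity less the background. Outlier spots were dropped and the rest averaged per probe. To scale the arrays, the 75th percentile over probes detected in both regions was taken as the unit (786 for the gland and 719 for the flank), and a miRNA was given the mean of its probes. Detection of a probe required over 50% of its spots to be well above background, and detection of a miRNA required 1 such probe. By this rule 284 miRNAs were detected in both regions, and a ratio below is always the scaled signal of the gland over that of the flank. Of the 284, 6 had a ratio of at least 1.5 and 26 were lower in the gland by the same factor, and without scaling the counts were 15 and 23.

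All 4 members were detected on both arrays, and all 4 gave more signal from the gland. miR-181a was 1.62-fold higher, miR-181c 1.47-fold, miR-181d 1.201-fold and miR-181b 1.199-fold. Only miR-181a was past 1.5-fold, that is 1 of 4 members, where 2.11% of the miRNAs detected on both arrays were past 1.5-fold in this direction, and 0 members were 1.5-fold lower, where the share was 9.15%. After the normexp background correction, which also adds an offset of 50 to each spot, miR-181a was 1.41-fold higher and 0 of 4 passed. A ratio above 1 was seen for 57.7% of the miRNAs detected on both arrays. In these whole tissue samples fewer cells of a type that holds a miRNA cannot be told apart from less of the miRNA per cell.

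Each member was read by 2 probes of 10 spots. miR-181a had a signal of 122 ± 9.58 (SD over 10 spots) on its first probe in the gland, with spots from 99.8 to 129.8, against 69.5 ± 7.00 (SD over 10 spots) in the flank, with spots from 60.3 to 82.8. On its second probe the values were 411 ± 23.6 over 10 spots and 230.3 ± 15.5 over 9. The spots of the 2 arrays did not overlap on either probe, and the scaled ratios of the probes were 1.60 and 1.63. The mean over both probes was 267 in the gland and 149.9 in the flank before scaling. On the log2 scale the ratio was 0.70 with an SE over spots of 0.035. The 1 outlier spot of miR-181a, on the second probe in the flank, had a signal of 19.6, far under the other 9, and with outlier spots kept the log2 ratio was 0.80.

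miR-181c, the near twin of miR-181a in sequence, was next. Its first probe gave 473 ± 16.8 (SD over 9 spots) in the gland and 292 ± 7.54 (SD over 9 spots) in the flank, and its second gave 200.2 ± 9.01 and 125.9 ± 7.38 (SD over 10 spots each). Again no spot of the flank reached the lowest spot of the gland, and the probes had ratios of 1.48 and 1.45. The log2 ratio of miR-181c was 0.56 with an SE over spots of 0.018, just under the 1.5-fold line.

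miR-181b, made from the same clusters as miR-181a, had a smaller ratio. Its first probe gave 197 ± 11.5 in the gland and 148 ± 12.7 in the flank (SD over 10 spots each). Its second gave 364 ± 18.8 over 10 spots and 279.6 ± 12.4 over 9, without overlap. The probes had ratios of 1.22 and 1.19, and the log2 ratio of the miRNA was 0.26 with an SE over spots of 0.027.

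miR-181d, which shares its cluster with miR-181c, had a ratio close to that of miR-181b. Its first probe gave 176 ± 11.7 and 135 ± 6.69, and its second 451 ± 25.0 and 342 ± 16.0, for the gland and the flank in that order (SD over 10 spots each). The ratios of the probes were 1.19 and 1.205. The log2 ratio was 0.26 with an SE over spots of 0.026.

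**Figure D1:**
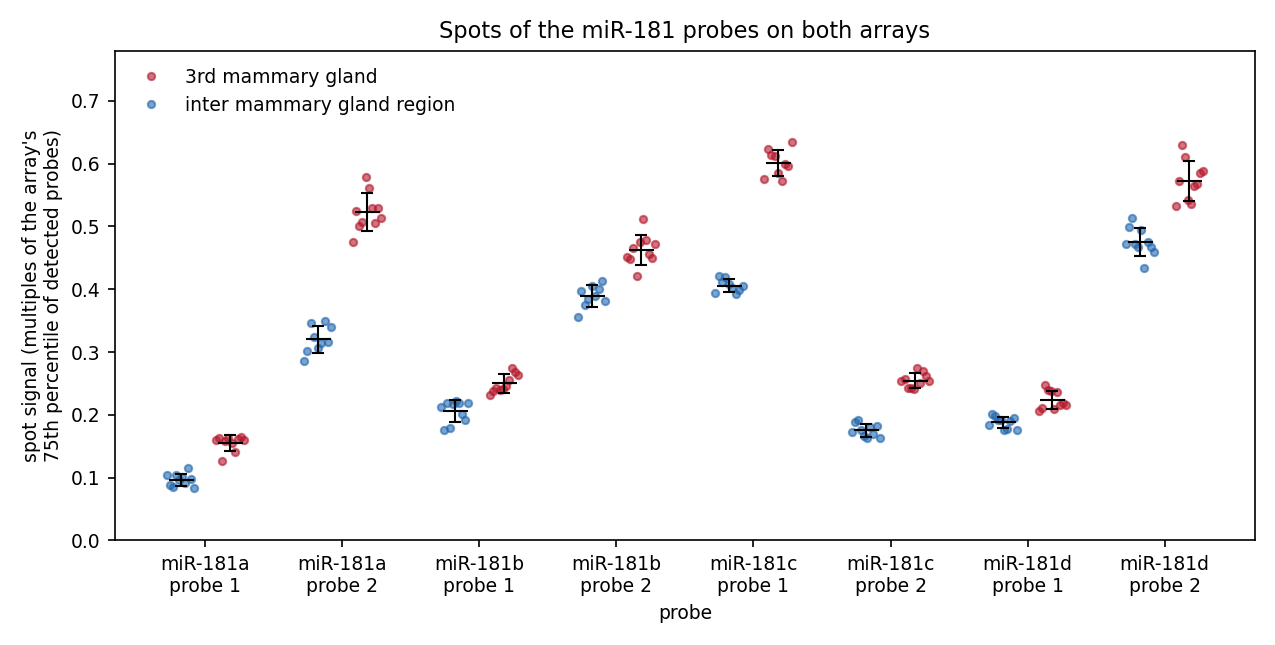
Signal of each kept spot of the 8 probes of the family, in multiples of the 75th percentile of the detected probes of its array (linear axis from 0), with the mean and the SD over spots in black. On all 8 probes every spot of the gland (red) lies above every spot of the flank (blue), and the ratios of the means run from 1.19 to 1.63.

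Taking the spots together, 79 of the 80 spots of the family were kept on the array of the gland and 77 on the other, and all of them were well above background. Of 77 spots kept at the same place on both arrays, 77 were brighter after scaling in the gland, against 56.6% of the 4774 such spots of all probes detected on both arrays. On 8 of 8 probes the scaled spots of the arrays did not overlap, where 19.3% of the 555 probes detected on both arrays had every spot of the gland brighter. Divided by row and column into 4 parts of the array, the median spot was brighter in each part for each member, with a log2 ratio from 0.53 to 0.79 for miR-181a, 0.52 to 0.65 for miR-181c, 0.17 to 0.36 for miR-181d and 0.15 to 0.33 for miR-181b. The 2 probes of a member lay 0.017 to 0.031 apart in log2 ratio. For the 244 miRNAs with more than 1 probe detected in both regions, the median distance from highest to lowest probe was 0.083. Those 244 include dim miRNAs, and the distance was not matched for signal or number of probes.

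By their SEs over spots alone, the ratios lay closer together within the pairs by sequence than within the genomic clusters. miR-181a exceeded miR-181c by 0.14 on the log2 scale (SE over spots 0.039), and miR-181b and miR-181d differed by less than 0.01 with an SE of 0.037. Within the clusters, miR-181a exceeded miR-181b by 0.44 (SE over spots 0.044), and miR-181c exceeded miR-181d by 0.29 (SE over spots 0.032). The order from high to low was thus miR-181a, miR-181c, and then miR-181d with miR-181b, which did not differ beyond their spread over spots. These SEs leave out the variation between dissections and between hybridizations, and by the wider errors of the scanning software, given next, miR-181c was not resolved from the lower pair. The probe sequences were not used here, and how far a probe for one member also takes up its near-identical partner was not tested, so the values within a pair may not be independent measurements. Signal levels are not set against each other between members, because probes differ in how much signal they give for the same amount of RNA.

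The software's own summary carries wider errors. Feature Extraction sums the detected probes of a miRNA to a total signal with an error of its own. For the members these totals are proportional to the probe means used above, so their order is the same by construction and is no second check of it. For miR-181a it gave 353 (error 28.9) in the gland and 194 (error 16.4) in the flank, an unscaled quotient of 1.82 with a propagated error of 0.214. The quotients were 1.65 (error 0.181) for miR-181c, 1.344 (error 0.149) for miR-181d and 1.342 (error 0.144) for miR-181b. Plus or minus 1 error, the quotient of miR-181a spanned 1.60 to 2.03. That span did not overlap those of miR-181b, at 1.20 to 1.486, and miR-181d, at 1.19 to 1.493. The quotient of miR-181c spanned 1.47 to 1.83 and overlapped the spans of the other 3. Spans of 1 error are narrow, and a gap between them is no test of a difference.

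Beside the other miRNAs the family lay in the upper part of the range. The median log2 ratio of the 4 members was 0.41, against 0.048 over all 284 miRNAs detected on both arrays, whose middle 50% ran from -0.14 to 0.22. Counted from the highest ratio, miR-181a was number 3, miR-181c number 10, miR-181d number 56 and miR-181b number 57. The place depended on the processing, from 2 to 15 for miR-181a and from 7 to 21 for miR-181c over 14 alternatives. The miRNAs above miR-181a were miR-2141 (1.95-fold higher) and miR-690 (1.63-fold), and those just below it were miR-338-3p (1.598-fold), miR-1839-5p (1.57-fold) and miR-2140 (1.55-fold). Of these miR-338-3p was dim, with signals before scaling of 28.6 in the gland and 16.4 in the flank, the latter under the brightest negative control spot of that array (19.2), and miR-1839-5p had 43.6 and 25.4, so both folds are uncertain. Around the lower pair, miR-214* (1.209-fold) and miR-423-5p (1.203-fold) were just above, and miR-214 (1.198-fold), miR-3470a (1.197-fold) and miR-30e* (1.195-fold) just below. Likeness here is only the distance between log2 ratios over 2 arrays.

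**Figure D2:**
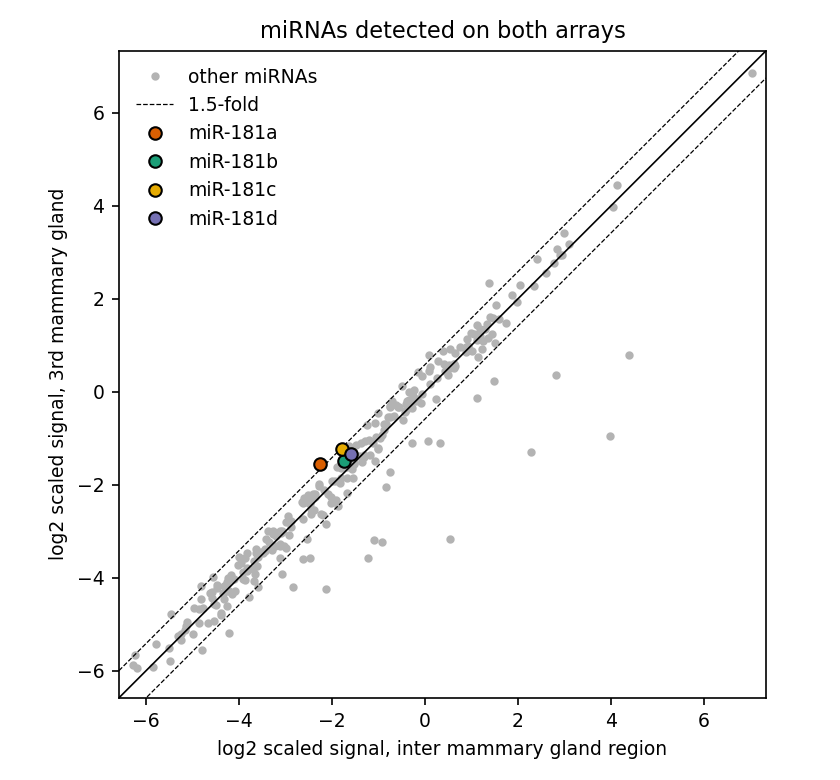
Scaled signal of the 284 miRNAs detected on both arrays, as log2 values, with the flank on the horizontal and the gland on the vertical axis; the solid line is equal signal and the dashed lines are 1.5-fold. All 4 members lie above the solid line, and of the 4 only miR-181a, at 1.62-fold, lies beyond the dashed one.

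A pair of other families whose guide strands also come from several clusters served for comparison. All 5 miR-30 guide strands had log2 ratios above 0, from 0.0012 (miR-30e) to 0.44 (miR-30c), with a median of 0.25, and 0 of 5 were past 1.5-fold. Of the 9 members of the let-7 family with miR-98, 3 were above 0 and 0 were past 1.5-fold in either direction, with a range from -0.46 (let-7i) to 0.24 (let-7e) and a median of -0.050. The miR-181 members ran from 0.26 (miR-181b) to 0.70 (miR-181a), a span of 0.44. The miR-30 range was about as wide and the let-7 range wider, so a spread of this size was not particular to miR-181. With 1 array per region the differences between families were not tested.

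Lists of cell type markers were set beside the family. All 4 striated muscle miRNAs (miR-1, miR-133a, miR-133b and miR-206) were past 1.5-fold lower in the gland, with log2 ratios from -1.43 to -1.12, and their summed scaled signal was 2.09 there and 5.02 in the flank. Of the 7 epithelial miRNAs, all detected on both arrays, 5 were above 0. miR-200a (0.51), miR-429 (0.40), miR-200b (0.37), miR-200c (0.34) and miR-141 (0.21), which guard the epithelial state, had positive log2 ratios, and the skin miRNAs miR-203 (-0.31) and miR-205 (-0.021) had negative ones. The summed scaled signal of the list was 13.9 in the gland and 13.3 in the other region.

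Blood cells are a known site of miR-181, so their markers stand beside it. Of 6 blood and lymphoid miRNAs, 4 were detected on both arrays and 2 on neither, with summed scaled signals of 7.88 in the gland and 5.98 in the flank. Most of that sum was the red cell miRNA miR-451, at 7.23 and 5.32, and without it the list summed to 0.653 in the gland and 0.659 in the flank. miR-150, a marker of mature lymphocytes, had signals of 3.95 and 1.22 in that order, within the spread of the negative control spots. The myeloid miRNA miR-223 had a log2 ratio of -0.11 and the pan-leukocyte miR-142-3p of -0.060. miR-451 and miR-144, another red cell miRNA, had log2 ratios of 0.44 and 0.15. Of the vessel miRNAs, miR-126-3p was at 0.046 and miR-126-5p at 0.21. Of 4 neural miRNAs only miR-128 was detected by the rule used here, at -0.57, and miR-9, miR-124 and miR-137 were detected on neither array. The study itself reported miR-137 as raised in the gland, by its arrays and by in situ hybridization. Here miR-137 had signals before scaling of 22.6 in the gland and 9.73 in the flank. These are means over spots, an unlike measure to the normalized array values of the study. The brightest negative control spots were 17.3 and 19.2 in that order. The part of these cell types in the ratios of the miR-181 family was not tested.

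**Figure D3:**
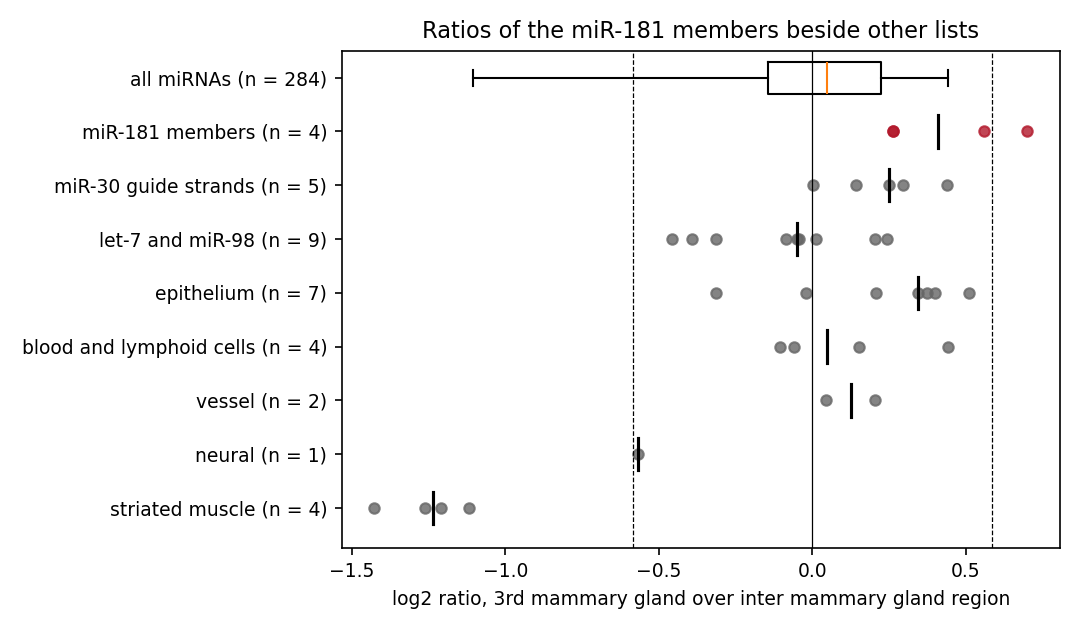
Log2 ratios of the miRNAs detected on both arrays, by list, with each point a miRNA, the black bar the median of its list and the dashed lines 1.5-fold in each direction; the box holds the middle 50% of all 284 miRNAs and its whiskers run from the 5th to the 95th percentile. The miR-181 members (red) have a median of 0.41, and the 4 muscle miRNAs lie at -1.12 or lower.

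The other strands of the same hairpins, called passenger strands and marked with a star on the array, are usually broken down once the guide strand is loaded. The arrays carry 2 of them, matched to RefSeq by arm, and both come from the genes of miR-181a.
miR-181a-1*: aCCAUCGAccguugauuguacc
miR-181a-2*: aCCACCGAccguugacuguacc
They are shown because their seeds (capitals, bases 2 to 8) differ from that of the guide strands, and because each comes from 1 gene, Mir181a-1 or Mir181a-2, and could tell the clusters apart. miR-181a-1* was dim, with a mean signal over probes of 28.5 in the gland and 22.0 in the flank. The negative control spots averaged 3.81 ± 5.28 (SD, 432 spots) with a maximum of 17.3 for the gland, and 2.23 ± 5.07 (SD, 428 spots) with a maximum of 19.2 for the flank. Of the kept spots of miR-181a-1*, 9 of 20 and 3 of 17 were well above background. In the gland 7 of 10 were on its first probe, so it counted as detected in the gland only. After scaling, the mean of its probes there did not exceed the dimmest single probe detected in the flank (27.1 before scaling). Its first probe alone, at 33.5 before scaling, did exceed that probe. As miR-181a-1* was not detected in the flank, it has no fold. Feature Extraction called it detected in both regions, with totals of 37.7 (error 6.07) and 17.1 (error 4.01), but the first total sums both probes and the second holds 1. The sums over both probes were 37.7 and 28.5.

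miR-181a-2* was not detected, with 0 of 20 kept spots well above background in the gland and 0 of 19 in the flank. Its mean signals of 2.73 and 0.811 lay within the spread of the negative control spots. No passenger strand signal of the chromosome 2 gene was therefore at hand to set beside that of chromosome 1.

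The size of the ratios moved with the scaling. The median of all miRNAs was 0.048 on the log2 scale here, 0.18 without scaling and 0.21 when scaled to all probes. Against that median the family's own median stood 0.36 higher in each of these. That could not differ, because these settings only divide each array by another constant. Over the 14 alternatives the family's median stood 0.295 to 0.403 higher. Under 14 alternatives all 4 members stayed above 0. Of the 14, 8 shift the members alike or leave their ratios as they are, so they cannot change the order within the family. In the other 6, miR-181a and miR-181c both stayed above miR-181b and miR-181d, by 0.23 to 0.31 on the log2 scale. miR-181a ran from 1.41-fold to 1.82-fold and was past 1.5-fold in 13 of the 14, the exception being the normexp background correction. miR-181c ran from 1.36-fold to 1.65-fold and was past 1.5-fold in 5 of the 14. miR-181b and miR-181d stayed at or under 1.34-fold and were past 1.5-fold in 0 of the 14. Using Feature Extraction's own calls of detection, or leaving out dim miRNAs, changes no member's ratio. Those alternatives are among the 14 and could not alter these counts.

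**Figure D4:**
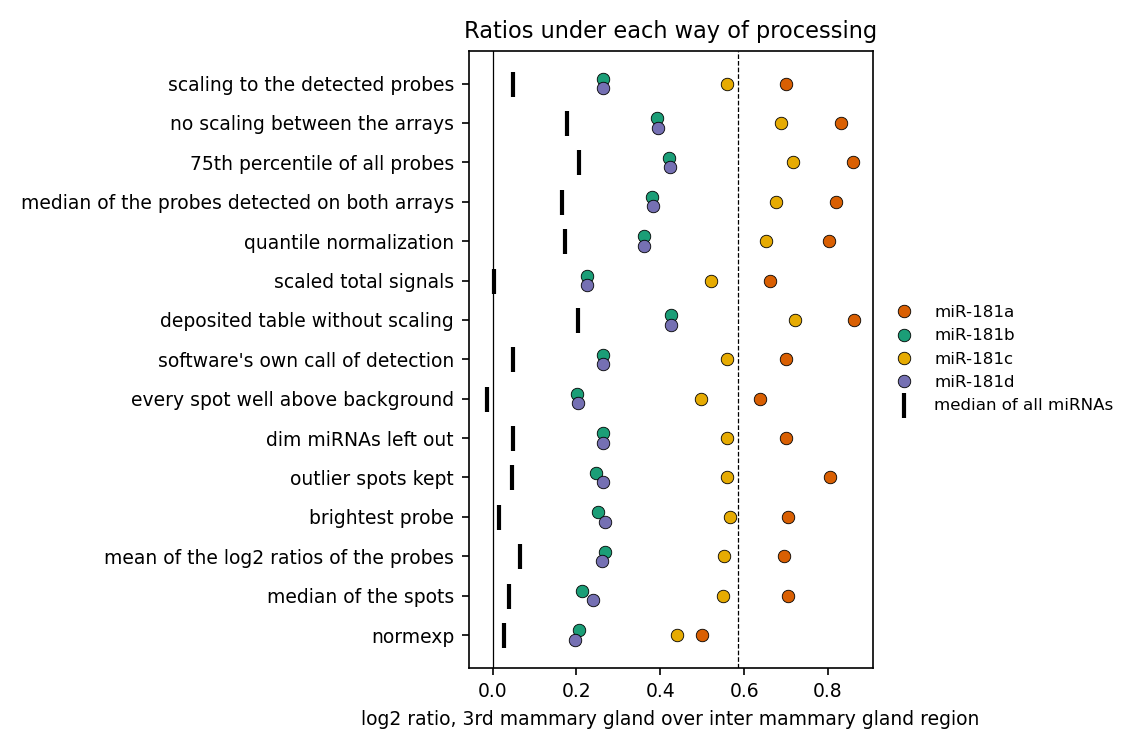
Log2 ratios of the 4 members under the scaling used here (top) and under 14 alternatives, with a black bar for the median of all miRNAs detected on both arrays and a dashed line at 1.5-fold. miR-181a and miR-181c lie right of miR-181b and miR-181d throughout, which 8 of the 14 could not change, and miR-181c lies past the dashed line in 5 of the 14.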

How the data were processed

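Total RNA of the 3rd mammary gland and of the inter mammary gland region was read on 1 array each. Samples were grouped by their tissue labels. Scans were quantified by the authors in Feature Extraction, for which the header gives version 10.7.3.1. The deposited intensity of a spot is background-subtracted, on a linear scale and not normalized between arrays. The deposited table equals the total signal of the scanner files for 696 of 696 miRNAs on both arrays. Normalization was done in GeneSpring GX according to the methods, which describe ratios as the mean normalized signal over the mean normalized intensity of the control channel, with no signal column or scaling stated. The array's grid names mm9, and the files give no positions. Sequences and positions were taken from RefSeq (GRCm38.p6).

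Control spots were dropped, as were outlier spots, which made up 1.67% of the miRNA spots on the array of the gland and 2.51% on that of the flank. Averaging and scaling were as given above. The SE of a log2 ratio was propagated from the SD over spots. The members and lists were chosen with earlier results of these data known. Named miRNAs were the members, the starred strands of the family, and the 3 nearest ratios on each side of its ends, of which 2 exist above miR-181a. Alternatives changed the scaling, signal column, background correction, detection, threshold, averaging, and filters on outlier spots and dim miRNAs. The planned normexp correction was run on the median pixel signal, with an offset of 50. The steps were tested on simulated spots with known folds. The tools were limma 3.58.1 in R 4.3.3, and numpy 2.4.6, pandas 2.3.3 and matplotlib 3.10.9 in Python 3.11.15.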

Additional observations from a re-analysis of the deposited data

How the results depend on the processing

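No paired analysis was possible because there is a single array for each region. The median log2 ratio of the members, 0.41 with an SE over spots of 0.016, was 0.54 without scaling, 0.57 when scaled to the 75th percentile over all probes, 0.53 when scaled to the median of detected probes, 0.51 after quantile normalization, 0.37 with the scaled total signals, 0.57 with the deposited table without scaling, 0.35 when detection needed all spots of a probe above background, 0.39 with the median of the spots and 0.32 after normexp. Under the 5 other alternatives it moved by less than that SE. The number of members at least 1.5-fold higher, 1 here, was 2 without scaling, when scaled to all probes or to the median of detected probes, after quantile normalization and with the deposited table, where miR-181c passed as well. It was 0 after normexp and 0 at a 2-fold threshold, which lowers counts by construction. No miRNA detected on both arrays reached 2-fold in this direction, the highest being miR-2141 at 1.95-fold. Otherwise the number of members stayed at 1. Over all miRNAs detected on both arrays, 6 of 284 passed here, against 15 without scaling, 19 when scaled to all probes, 15 with the median of detected probes, 14 after quantile normalization, 31 of 323 with the deposited table, 18 of 323 with the scaled total signals, 13 of 323 when Feature Extraction's detection flag was used, 12 with the mean of the log2 ratios of the probes and 2 of 284 after normexp. The scalings, the total signals and the stricter detection, which changes the probes behind the scaling, shift the 4 members alike. For quantile normalization, the median of the spots and normexp, the cause was not tested. All kept spots of the guide strands were well above background, and dim signal limited both passenger strands. Among the alternatives at the 1.5-fold line, miR-181a failed to pass only under normexp. That setting also used the median pixel signal and added an offset of 50, which draws unscaled ratios toward 1 by construction. The part of each was not told apart.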
